A study of Mus musculus with 6 samples.

Results

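The heat shock chaperones of the cytosol and the mitochondria were followed in A20 cells, a B lymphoma line from a BALB/c mouse. The set was defined by gene symbol, as all probe sets that the platform annotation gives to 10 genes: Hsf1, Hspa8, Hspa4, Hspa9, Hspd1, Hspe1, Hsp90aa1, Hsp90ab1, Hsph1 and Dnajb1. The annotation used here paired 25 probe sets with 8 of them, out of 34958 probe sets and 18194 genes with 1 symbol. Hsf1 and Hsp90ab1 were not analysed here. All 8 chaperones were bright enough to be fitted, among 11731 genes fitted in all.

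Each of 6 conditions had 1 Affymetrix array. The untreated cells had DMSO and neither TGF-β nor SP600125, an inhibitor of the JNK kinases. The cells with SP600125 alone had the drug for 24 h. The other 4 arrays are of cells given TGF-β, for 12 h or 24 h, together with DMSO or with the drug for as long. The design asks what TGF-β changes in these cells and how much of it depends on JNK. No condition was repeated, so single pairs of arrays are given as values with no test. Tests come from an additive limma model over the 6 arrays, which averages the TGF-β effect over both drug settings (2 pairs of arrays) and the SP600125 effect over the TGF-β states (3 pairs). The model takes the drug as yes or no, whatever its time. Among the arrays with the drug, that of 12 h of TGF-β had the drug for 12 h and the others for 24 h. In its pairs with them TGF-β time and drug time cannot be told apart. In the text "rose" and "fell" mean a Benjamini-Hochberg adjusted p under 0.05 in that model, and errors after ± are its standard errors. Nothing in the labels says that the arrays came from separate cultures. A p-value here sets an effect against the departure from additivity between these arrays, moderated over all genes fitted. That departure may be technical.

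Values are the deposited probe set signals, which are linear intensities scaled to the same trimmed mean on every array. Among the control probe sets the 18S ribosomal RNA signal was 3288.9 on 1 array, that of both agents for 24 h, against 270.9 to 659.3 on the others and for actin the 3′/5′ ratio there was 1.89, outside the 1.25 to 1.51 of the rest. Of 10 B cell markers 9 had a probe set, and all 9 were above the floor of 74.2 on every array, the median of all signals. Their summed signal was 41132 to 42436 on the 3 arrays with SP600125 and 55892.9 to 65936.6 on the 3 without, and its part in the drug results was not tested. The markers did not all go the same way: in the additive model 7 of the 9 drug effects were below 0 and 2 above. Blnk had 4087.7 in untreated cells and 6191.7 with the drug alone, where Ptprc had 16924.6 and 8014.7. Of 8 fibroblast markers 0 to 4 were above the floor, of 9 T and NK cell markers 1 to 3, of 10 myeloid markers 3 to 5, and of 7 erythroid and platelet markers 3 or 4. In bulk RNA fewer cells of a type and less RNA per cell cannot be told apart.

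Heat shock proteins are chaperones that bind unfolded or newly made proteins and release them through cycles of ATP hydrolysis. In the cytosol HSP70 proteins receive clients from J-domain proteins, exchange nucleotide with the help of HSP110 proteins, and pass some clients to HSP90, while in the mitochondrial matrix a separate HSP70 pulls proteins through the inner membrane and the chaperonin HSP60 with its lid HSP10 folds them. Many of these genes are controlled by the factor HSF1, which binds repeats of the letters GAA, read on alternating strands, called heat shock elements.

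Promoter sequences are shown for the genes of the set that hold such repeats, among them a pair that shares a promoter and had unlike TGF-β values. RefSeq promoter windows, from 250 bases before to 50 bases after a start site in build GRCm38.p6, were found for 5 of the 10 genes (Hspd1, Hspe1, Hsph1, Dnajb1 and Hspa4). The searched motif of 3 units was GAANNTTCNNGAA, or TTCNNGAANNTTC on the other strand, and it contains the 2-unit motifs GAANNTTC and TTCNNGAA. The 3-unit motif was in 0.603% of 32851 windows of this length, GAANNTTC in 7.86% and TTCNNGAA in 8.52%. Of the 5 genes, 3 held the 3-unit motif. Hspd1 and Hspe1 are divergent neighbours on chromosome 1. Between the start of Hspe1 at 55088148 and 1 annotated start of Hspd1 at 55087932 lie 215 bases. The other annotated start of Hspd1, at 55088243, is closer to the Hspe1 start but lies past it, and its window held no match. Both genes thus share the element below, read on the Hspe1 strand at chr1:55088019-55088116, where the capitals mark overlapping 3-unit matches that begin at position −89 from the Hspe1 start. For Hsph1 the stretch before the start at chr5:149636337-149636416, on the minus strand, holds a 2-unit match, and the 3-unit match lies after the start, at chr5:149636288-149636301.
Hspd1 and Hspe1: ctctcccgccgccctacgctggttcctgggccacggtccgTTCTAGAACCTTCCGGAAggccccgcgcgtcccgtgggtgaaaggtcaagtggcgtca
Hsph1 before the start: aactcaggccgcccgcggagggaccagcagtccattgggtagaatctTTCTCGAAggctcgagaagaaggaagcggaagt
Hsph1 after the start: aTTCTGGAAAGTTC
The windows of Dnajb1 and Hspa4 held no match to these letters. A match is a description of letters and not a measured binding site.

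Hsph1, Hspa9 and Hspd1 fell at 24 h of TGF-β, by 0.75, 0.64 and 0.51 on the log2 scale, while the effects on Hspe1, Hspa8 and Dnajb1 lay between −0.09 and 0.09. In limma 3 of 8 chaperones fell and 0 rose at 24 h, against 7.5% fallen and 9.07% risen among all genes fitted, and 4 of 8 had an unadjusted p under 0.05, as did 31.3% of all genes. The median effect over the 8 was −0.16 on the log2 scale, against 0.07 over all genes. At 12 h 0 rose and 0 fell, against 2.6% and 2.37% of all genes, with 3 of 8 and 21.7% of all genes at an unadjusted p under 0.05 and a median of −0.18 against 0.02. Of all genes called, 54.7% had risen at 24 h, 52.3% at 12 h and 51.9% with SP600125, and under median scaling of the arrays these shares were 34.0%, 34.3% and 34.1%. The contrast of 24 h with 12 h called 0 of 8 in limma, where 0.017% of all genes were called, with 1 of 8 and 15.3% of all genes at an unadjusted p under 0.05. Each of the 3 falls at 24 h missed the threshold when any 1 of the 6 arrays was left out, with adjusted p from 0.0534 to 0.341, and kept its direction. Leaving out either array at 24 h of TGF-β leaves 1 array for that effect. All calls at 24 h were then lost across all genes, so this holds for the partner genes below as well. All 3 calls were also lost without the filter on dim genes and without the intensity trend, and those of Hspa9 and Hsph1 with the mean of all probe sets (adjusted p = 0.105 and 0.0703).

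**Figure D1:**
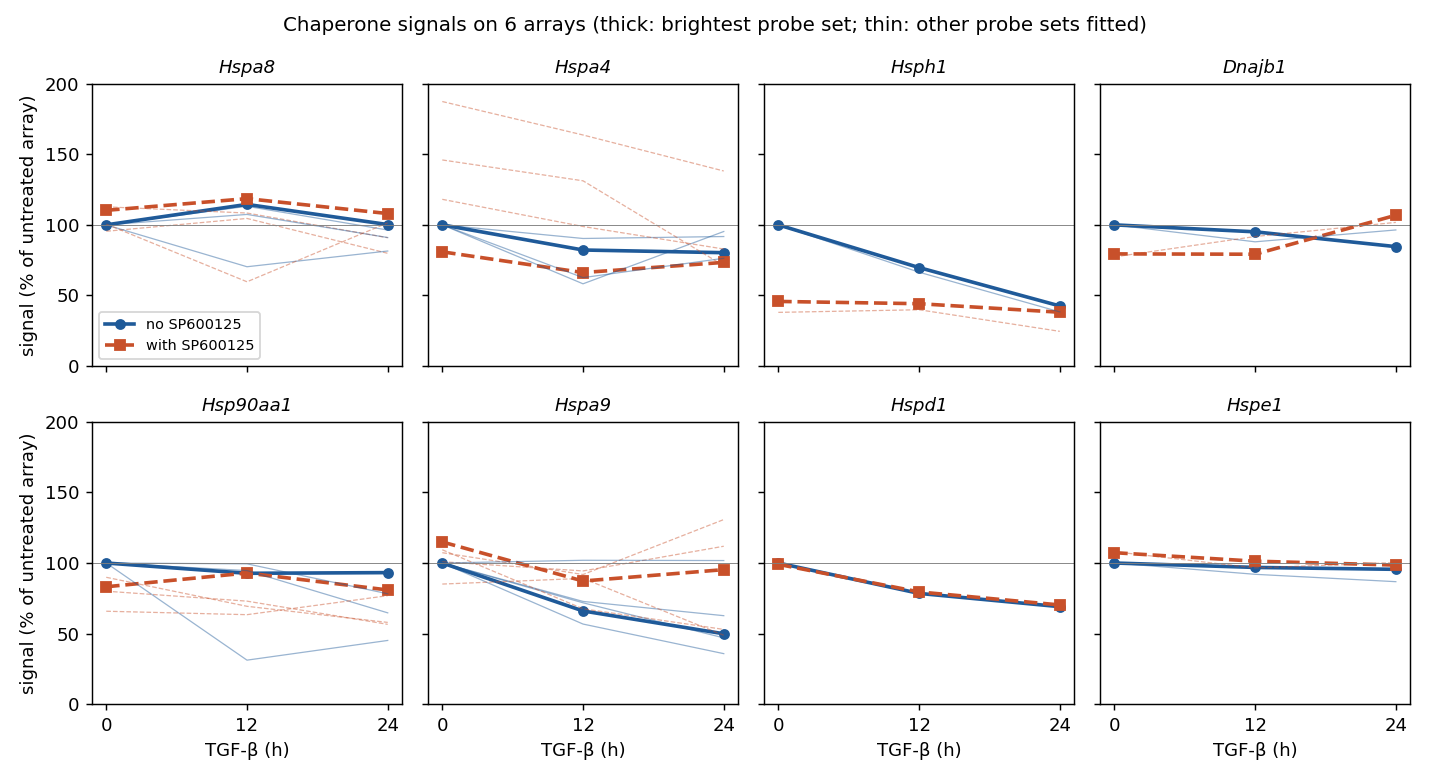
Signal of each chaperone as a percentage of the untreated array (y axis) against hours of TGF-β (x axis), without SP600125 (blue, solid) and with it (orange, dashed). Thick lines are the brightest probe set of the gene and thin lines its other fitted probe sets. Hsph1 was at 45.8% with the drug alone, Hspa9 at 49.9% after 24 h of TGF-β without the drug and 95.3% with it, and Hspd1 at 69.1% and 70.3%.

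Hsph1 encodes HSP110, the nucleotide exchange factor that recharges HSP70. Its brightest probe set had signals of 5062.9 in untreated cells, 3531.5 and 2155.9 after TGF-β for 12 h and 24 h, 2318.3 with SP600125 alone, and 2236.8 and 1931.1 with both agents. Untreated cells had the highest signal and TGF-β with SP600125 at 24 h the lowest, and the arrays with the drug were all below the untreated array and the 12 h array without it. The additive model gave −0.75 ± 0.20 on the log2 scale at 24 h, lower in 2 of 2 pairs (limma, Benjamini-Hochberg adjusted p = 0.0395). The averaged effect hides unlike pairs, since the change at 24 h was −1.23 without drug and −0.26 with it. The other Hsph1 probe set ran from 4044.4 in untreated cells to 1552.0 at 24 h of TGF-β and fell by 1.01 ± 0.18 (adjusted p = 0.0116 in the limma fit of all probe sets). Its change at 24 h was −1.38 without drug and −0.63 with it, so at 24 h the small change with the drug is that of the brightest probe set only. At 12 h the brightest changed by −0.52 without drug and −0.05 with it, and the other by −0.59 and 0.07.

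Hspa9 encodes mortalin, the mitochondrial HSP70 that drives protein import. Its brightest probe set had signals of 7909.9, 5224.6 and 3946.4 without drug (0 h, 12 h and 24 h of stimulation), and 9088.3, 6900.7 and 7538.6 with SP600125. The 2 arrays with TGF-β and no drug were the lowest of the 6. At 24 h Hspa9 was 2.00-fold lower without drug and 1.21-fold lower with it. Hspa9 and Hsph1 were the 2 of 8 chaperones at least 2-fold lower at 24 h without drug, against 1.91% of all genes. At 12 h without drug, and at 12 h and 24 h with it, 0 of 8 were, against 1.44%, 1.3% and 2.02% of all genes. In the additive model it fell by 0.64 ± 0.16 at 24 h, lower in 2 of 2 pairs (limma, adjusted p = 0.0343), and was at −0.50 ± 0.16 at 12 h (adjusted p = 0.125). A further bright probe set went from 7550.4 to 4286.5 and 2704.6 without drug, 2.79-fold lower at 24 h, and was at 7618.0, 7126.8 and 8446.6 with drug, so that its pairs at 24 h went opposite ways and the averaged effect, −0.67 ± 0.30, did not pass (adjusted p = 0.185 in the limma fit of all probe sets). The high value at 24 h with SP600125 comes from the array with the deviating 18S signal, and the 12 h array with SP600125 was also above its partner without drug on both probe sets. The dimmer probe sets of Hspa9 were split: 1 had 415.6 and 866.7 at 24 h without and with drug, and another had 326.2 and 339.0. The latter fell by 0.95 ± 0.22 at 24 h, lower in 2 of 2 pairs (adjusted p = 0.0267), and had no such gap between the arms. The dimmest one ran from 57.7 to 119.1 and was lowest with both agents.

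Hspd1 encodes HSP60, the chaperonin of the mitochondrial matrix. Its single probe set had signals of 20810.8, 16333.6 and 14376.4 at 0 h, 12 h and 24 h without drug, and 20617.0, 16548.7 and 14628.7 with SP600125. The arrays fell into 3 levels by TGF-β time, and within each level the drug moved the signal by at most 0.03 on the log2 scale. Hspd1 fell by 0.51 ± 0.09 at 24 h, lower in 2 of 2 pairs (limma, adjusted p = 0.00928), and was at −0.33 ± 0.09 at 12 h (adjusted p = 0.0767). Of the 3 falls it was the steadiest, from −0.53 to −0.50 when each array in turn was left out, against −0.95 to −0.32 for Hspa9 and −1.11 to −0.38 for Hsph1. Hspe1 encodes HSP10, the lid of the same chaperonin, and shares the promoter element shown above. Its brightest probe set varied only from 15002.3 to 16852.0 over the 6 arrays, a 1.12-fold range, and its effect at 24 h was −0.09 ± 0.09 (adjusted p = 0.531). The other Hspe1 probe set ran from 6084.8 to 7573.8. The Pearson r between Hspd1 and Hspe1 was 0.734 over the 6 arrays, which share their scaling, and the difference between their TGF-β effects was not tested. The s in the name of the brighter Hspe1 probe set marks, in Affymetrix naming, probes that can match more than 1 transcript.

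**Figure D2:**
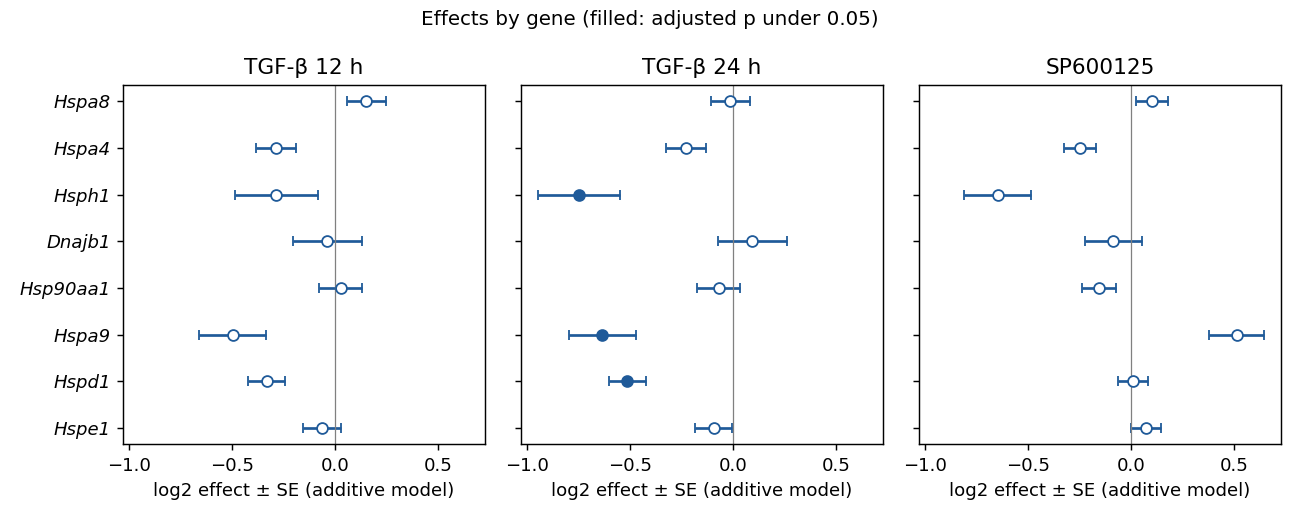
Effect of 12 h and 24 h of TGF-β and of SP600125 on each chaperone in the additive limma model (x axis, log2 effect, bars are standard errors; y axis, genes by their brightest probe set). Filled points pass an adjusted p of 0.05: Hsph1 at −0.75, Hspa9 at −0.64 and Hspd1 at −0.51 at 24 h of TGF-β.

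The HSP90 gene of the set gave a different answer on different probe sets. Hsp90aa1 encodes the stress-responsive HSP90α, which matures kinases and hormone receptors. Its brightest probe set had 21467.7 in untreated cells, 19904.2 and 20006.7 after TGF-β for 12 h and 24 h, 17856.5 with SP600125, and 19947.1 and 17372.4 with both, and its effect at 24 h was −0.07 ± 0.10 (adjusted p = 0.695). The next probe set had 20128.1, 20010.3 and 15741.7 without drug and 18090.9, 13958.0 and 11661.9 with it, and fell by 0.49 ± 0.12 at 24 h in the limma fit of all probe sets (adjusted p = 0.0280). Another bright one had 19219.4, 18189.3 and 12436.3 without drug and 15384.2, 14029.7 and 10871.8 with it, and fell by 0.56 ± 0.10 (adjusted p = 0.0105). On both of these the 24 h arrays were the lowest of their arm. Of the 5 probe sets of this gene, a dim one was above the floor on 2 arrays and another on 0, which left 4 in the fit.

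Over all probe sets, 7 of 24 fitted for the chaperones fell at 24 h and 0 rose, where 6.39% of 21238 probe sets fell and 6.76% rose. At 12 h 0 rose and 0 fell, against 1.78% and 1.52%. Those that fell at 24 h belong to Hsph1 (2), Hspa9 (2, the brightest and a dim one), Hsp90aa1 (2) and Hspd1 (1). Probe sets of a gene share their RNA and are not independent.

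**Figure D3:**
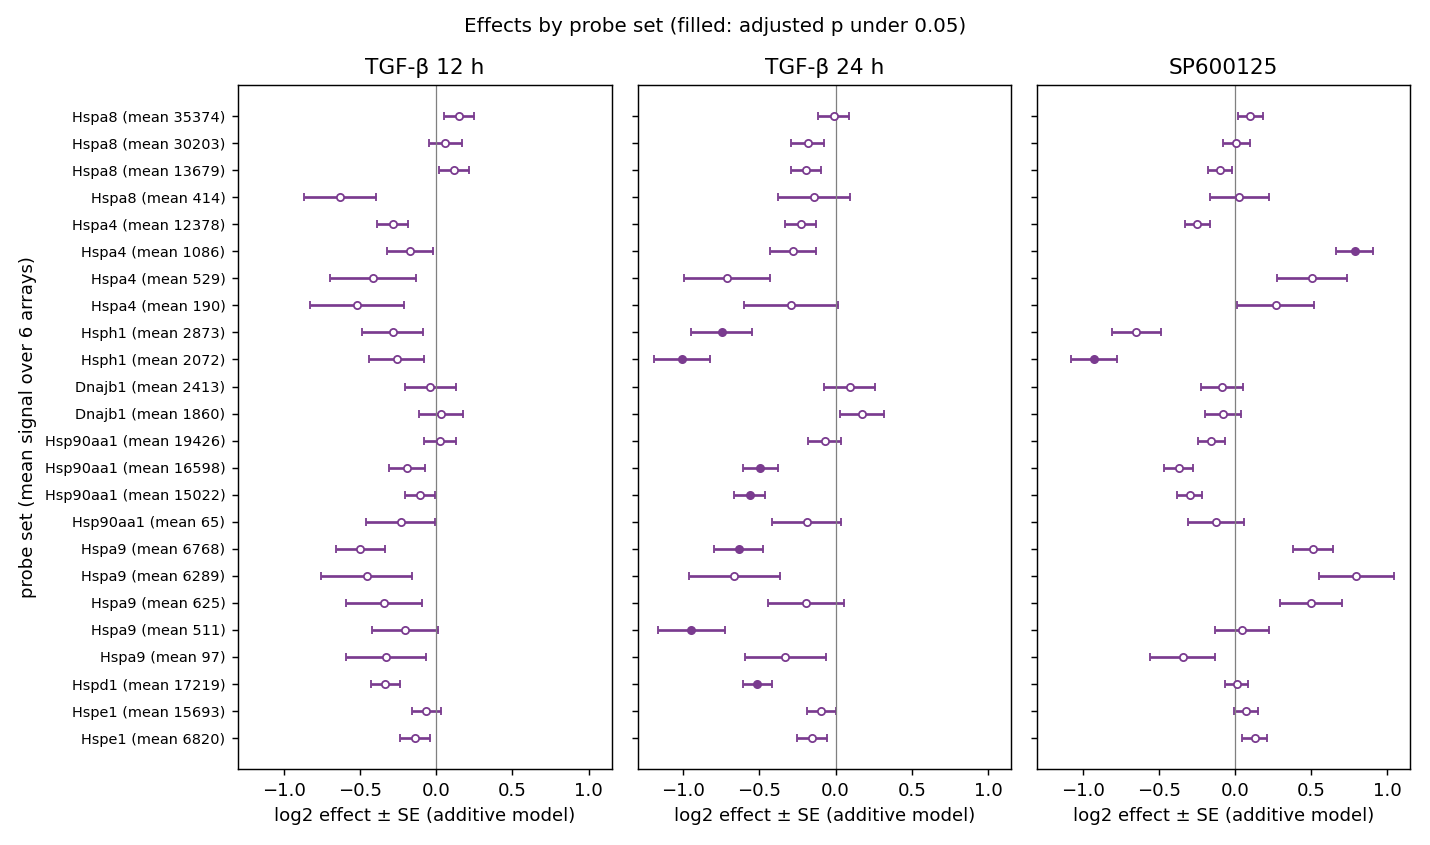
The same effects for each of the 24 fitted probe sets (y axis, gene and mean signal over the 6 arrays; x axis, log2 effect with standard error). Filled points pass an adjusted p of 0.05 in the fit of all probe sets: 7 below 0 at 24 h of TGF-β, and for SP600125 Hspa4 above 0 and Hsph1 below 0.

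In the cytosolic HSP70 system Hspa8, Dnajb1 and Hspa4 did not pass in any contrast by their brightest probe set. Hspa8 encodes HSC70, the HSP70 present in unstressed cells, and its brightest probe set ranged from 32574.4 in untreated cells to 38623.6 with TGF-β and SP600125 at 12 h, with effects of 0.15 ± 0.09 at 12 h and −0.01 ± 0.09 at 24 h. Its other bright probe sets ran from 26502.3 to 32988.8 and from 11334.4 to 15241.6, both lowest with both agents at 24 h, the array with the deviating 18S signal. The x in the name of the brightest Hspa8 probe set marks probes that can bind other transcripts. Dnajb1 encodes HSP40, the J-domain protein that loads clients on HSP70. Its signals were 2656.0, 2525.1 and 2246.8 without drug and 2110.3, 2103.7 and 2836.7 with it, and no effect passed, with adjusted p of 0.938 at 12 h, 0.756 at 24 h and 0.757 for SP600125 in limma. The highest Dnajb1 signal was on the array with the deviating 18S signal. Hspa4, an HSP110 relative that also serves as an exchange factor, had signals of 15373.9, 12636.7 and 12345.6 without drug and 12437.3, 10183.6 and 11288.4 with it. It was lower in 2 of 2 pairs at both TGF-β times, at −0.29 ± 0.10 and −0.23 ± 0.10, without passing (limma, adjusted p = 0.136 and 0.152). Under median scaling it fell at 24 h, by 0.36 ± 0.10 (adjusted p = 0.0407).

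With SP600125 no chaperone passed by its brightest probe set, and the values furthest from 0 were those of Hsph1, below it, and Hspa9, above it. In limma 0 of 8 rose and 0 fell, against 3.99% and 3.69% of all genes, with 3 of 8 and 24.1% of all genes at an unadjusted p under 0.05 and a median of −0.04 against 0.04 over all genes. Hsph1 was at −0.65 ± 0.16, lower in 3 of 3 pairs (adjusted p = 0.0523), and its other probe set fell by 0.92 ± 0.15 (adjusted p = 0.0127 in the fit of all probe sets). In unstimulated cells Hsph1 was 2.18-fold lower with the drug, the 1 of 8 chaperones at least 2-fold lower there, against 1.29% of all genes. In cells stimulated for 12 h and 24 h the log2 difference was −0.66 and −0.16, and on the other probe set −0.74 and −0.64. Hspa9 was at 0.51 ± 0.13, higher in 3 of 3 pairs (adjusted p = 0.0570), with differences of 0.20, 0.40 and 0.93 in the cells unstimulated and stimulated for 12 h and 24 h. The pair with the difference of 0.93 includes the array with the deviating 18S signal, whose part in the result was not tested. Under other settings these values crossed the threshold: Hsph1 fell under median scaling (adjusted p = 0.0273) and Hspa9 rose with quantile normalization (adjusted p = 0.0463).

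Hspa4 split by probe set under SP600125, with the brightest below 0 and all the dimmer ones above 0. The brightest was at −0.25 ± 0.08, lower in 3 of 3 pairs (limma, adjusted p = 0.101). The dimmest ones were at 0.50 ± 0.23 and 0.27 ± 0.25 and did not pass (adjusted p = 0.249 and 0.597 in the limma fit of all probe sets). The second brightest had 845.1, 763.6 and 775.3 without drug and 1583.1, 1382.9 and 1167.4 with it. It rose by 0.78 ± 0.12 (adjusted p = 0.0115 in the fit of all probe sets). On that probe set every array with the drug was above every array without it, and on the brightest the groups overlapped. It was the 1 of 24 chaperone probe sets that rose with the drug, against 2.99% of all probe sets, and the Hsph1 probe set the 1 that fell, against 2.74%. The drug effects nearest 0 were those of Hspd1 (0.01 ± 0.07) and Hspe1 (0.07 ± 0.07), with Dnajb1 at −0.09 ± 0.14, Hspa8 at 0.10 ± 0.08 and Hsp90aa1 at −0.16 ± 0.08.

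Whether SP600125 altered the response to TGF-β was tested in a limma model in which both stimulation times stand for 1 stimulated state. It called 0 of 8 chaperones and 0% of all genes, with 0 of 8 and 2.69% of all genes at an unadjusted p under 0.05. The interaction was 0.47 ± 0.30 for Hspa9 and 0.72 ± 0.46 for Hsph1, both with an adjusted p of 0.999. On the second bright probe set of Hspa9 it was 1.18 ± 0.44, with an adjusted p of 0.999 and an unadjusted p of 0.0506. On the dimmest one, where both arrays with TGF-β and the drug were below the floor, it had the opposite sign, at −0.71 ± 0.27, with an adjusted p of 0.999 and an unadjusted p of 0.0496. The change from 12 h to 24 h counts as error in this model, which limits what it can show. Without drug the brightest probe set went from 5224.6 to 3946.4 between these times for Hspa9 and from 3531.5 to 2155.9 for Hsph1. So the unlike pairs of Hspa9 and Hsph1 are values of single arrays, and a difference between the arms was neither shown nor excluded.

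Partner genes of these chaperones were read from lists of their co-factors, and among HSP90 partners, HSP70 partners, TRiC with prefoldin and mitochondrial partners more fell than rose at 24 h of TGF-β. Among all genes 7.5% fell and 9.07% rose at that time. Of 11 fitted HSP90 partners 4 fell and 0 rose at 24 h, with a median of −0.26, against 0.07 over all genes. Stip1, which bridges HSP70 and HSP90, fell by 0.79 ± 0.12, from a signal of 6021.7 in untreated cells to 3506.8 at 24 h without drug. Ahsa1, which stimulates the HSP90 ATPase, fell by 0.62 ± 0.10, and the phosphatase Ppp5c fell by 0.72 ± 0.12. Of 18 HSP70 partners 6 fell and 2 rose at 24 h. At 12 h 3 of them fell and 1 rose, where 2.6% of all genes rose and 2.37% fell. The one that rose at 12 h was Hspa13, by 0.62 ± 0.13. The nucleotide exchange factor Bag2 fell by 1.15 ± 0.13, and Hspa14 and Dnajc2, which act at the ribosome, fell by 0.84 ± 0.10 and 0.49 ± 0.12, while the J-domain genes Dnajb2 and Dnajc7 rose by 1.01 ± 0.25 and 0.98 ± 0.21. Of 15 genes of the cytosolic chaperonin TRiC and its feeder prefoldin 1 rose and 5 fell, among them the prefoldin subunits Pfdn6, Pfdn2 and Pfdn4 at −0.58 ± 0.11, −0.49 ± 0.13 and −0.47 ± 0.10, with Pfdn5 risen by 0.47 ± 0.09. The partner and ER genes named here gave 36 calls in limma. These were picked from the same 6 arrays, and in each all pairs already went the same way, so a kept direction is no support. Cryab, described below, is among them and entered the fit only through the arrays at 24 h of TGF-β. All 36 kept their direction under every alternative run, but 6 passed without the intensity trend, 0 without the filter on dim genes, and 0 to 5 with 1 array left out.

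In the mitochondria 3 of 16 partners and proteases fell and 0 rose at 24 h of TGF-β, against 7.5% and 9.07% of all genes, with a median of −0.27. At 12 h 3 of 16 fell and 0 rose as well, against 2.37% and 2.6%: Clpp by 0.71 ± 0.12, Dnaja3 by 0.66 ± 0.13 and Afg3l2, a subunit of an inner membrane protease, by 0.65 ± 0.15. At 24 h the matrix protease subunit Clpp fell by 0.98 ± 0.12, the intermembrane space protease Htra2 by 0.96 ± 0.22 and the J-domain gene Dnaja3 by 0.47 ± 0.13. With SP600125 2 of 16 rose and 0 fell, against 3.99% and 3.69% of all genes: the matrix protease Lonp1 rose by 0.74 ± 0.14, higher in 3 of 3 pairs (limma, adjusted p = 0.0198), and Dnaja3, which works with Hspa9, rose by 0.62 ± 0.10 (adjusted p = 0.0135). Lonp1 signals were 2506.3, 2167.4 and 1649.6 without drug and 4486.8, 2688.3 and 3426.7 with it.

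Among the stress-inducible heat shock genes 7 of 10 with a probe set were fitted. With TGF-β 1 of them fell at 12 h and 1 at 24 h, against 2.37% and 7.5% of all genes. The median of the 7 was 0.16 at both times, against 0.02 and 0.07 over all genes. At 24 h 6 of the 7 effects were above 0, that of Cryab included. At each time 4 of 7 had an unadjusted p under 0.05 in limma, as did 21.7% and 31.3% of all genes. Cryab is among the 4 at 24 h, and since it was fitted only through the arrays of that time, this count is a description. Fkbp4, an immunophilin that works with HSP90, fell by 0.85 ± 0.12 at 12 h and 1.05 ± 0.12 at 24 h, from a signal of 5554.3 in untreated cells to 2831.3 and 2389.7 without drug. The small heat shock gene Cryab was above the floor only on the 2 arrays of TGF-β at 24 h, at 140.0 and 175.9, against 2.5 to 63.6 on the others. It entered the fit only through those arrays, so its limma call as risen at 24 h, the only one of the list, is given as a description. With SP600125 0 of the 7 rose and 0 fell in limma, against 3.99% and 3.69% of all genes. An unadjusted p under 0.05 was found for 3 of the 7 and for 24.1% of all genes. Of 5 fitted heat shock factors and regulators 1 was called, the deacetylase Sirt1, which rose by 0.43 ± 0.09 with the drug. Among all genes 3.99% rose with the drug. Of the 18 HSP70 partners 1 fell with the drug, the J-domain gene Dnaja1, by 0.44 ± 0.08, a share near that of all genes.

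**Figure D4:**
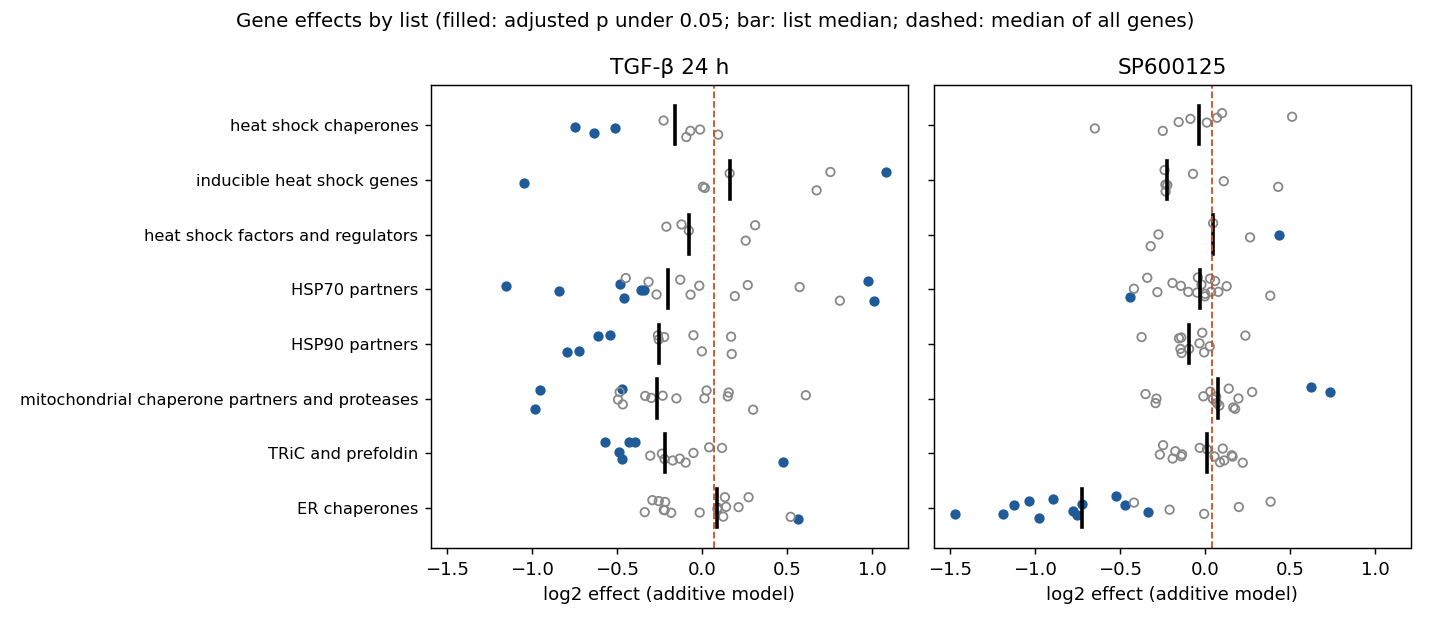
Effect of 24 h of TGF-β and of SP600125 (x axis, log2) on every fitted gene of the chaperones and of 7 comparison lists (y axis). Filled points pass an adjusted p of 0.05, black bars are list medians and the dashed line is the median of all genes. With SP600125 the ER chaperones had a median of −0.73 and the cytosolic and mitochondrial chaperones one of −0.04.

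The chaperones of the endoplasmic reticulum (ER) were called mostly with the drug and not with TGF-β. Of 17 fitted ER chaperones 12 fell and 0 rose with SP600125, against 3.69% and 3.99% of all genes, with a median of −0.73. At 24 h of TGF-β 1 rose and 0 fell, against 9.07% and 7.5%, with a median of 0.09, and the one that rose was Dnajb9, by 0.56 ± 0.11. The count of 12 was 2 without the intensity trend, 0 without the filter on dim genes, and 0 to 4 with 1 array left out. Hspa5, the ER member of the HSP70 family, fell by 0.47 ± 0.11 with the drug (limma, adjusted p = 0.0389), where its cytosolic relative Hspa8 was at 0.10 ± 0.08 and the mitochondrial Hspa9 at 0.51 ± 0.13. Hsp90b1, the ER member of the HSP90 family, fell by 0.78 ± 0.12 (adjusted p = 0.0110), where Hsp90aa1 was at −0.16 ± 0.08. Hsp90b1 signals were 10543.1, 11525.4 and 9345.6 without drug and 4696.6, 7518.0 and 6366.3 with it, with no overlap between the arms. Among the most lowered ER genes were Sdf2l1 at −1.47 ± 0.16, Creld2 at −1.19 ± 0.14 and Pdia4 at −1.12 ± 0.14. The lists were compared by counts and medians, and the difference between them was not tested.

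The genes most like the set were sought by the Pearson r of their log2 signal with the mean centred profile of the 8 chaperones over the 6 arrays. That profile was highest in untreated cells, at 0.25, and lowest at 24 h of TGF-β without drug, at −0.19. The closest were Mrpl1 (r = 0.993), a mitochondrial ribosomal protein, Cfdp1 (0.982), Enoph1 (0.980), an enzyme of methionine salvage, Nipa2 (0.979) and Kpna7 (0.979). With 6 arrays and 11731 genes such values are a description only. The lowest Kpna7 value, at 24 h of TGF-β without drug, is the floor of 74.2 and not a measured signal. Among the chaperones the closest pairs were Hspa4 with Hsph1 (r = 0.824) and Hspa9 with Hspe1 (0.823), and the most opposed were Hspa8 and Hspa4 (−0.701).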

How the data were processed

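RNA of A20 cells was hybridised to 6 arrays, 1 per condition. The deposited values are linear signal intensities per probe set, which the authors computed in GCOS 1.2 (per the submitters' processing notes). Its settings are not stated in the labels. The 45101 probe sets were named from the platform annotation: 34958 had 1 symbol, 932 several and 9211 were not listed. The brightest probe set, by mean signal, stood for a gene. Signals were floored at their 50th percentile (74.2) before log2, and genes that passed it on 2 or more arrays were fitted with limma 3.58.1 in R 4.3.3 (intensity trend, 2 residual and 5.97 prior degrees of freedom). The interaction model had 2.79 prior degrees of freedom. The fit was tested on simulated data. Named are all 8 chaperones, up to 3 called partners per list, effect and direction, Hspa5, Hsp90b1 and the 5 most similar genes. The chaperones and lists were chosen with earlier results of these data known. The number of arrays limits the precision.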

Additional observations from a re-analysis of the deposited data

How the results depend on the processing

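The alternatives were median scaling, quantile normalization, a floor at the 25th percentile, no floor with a pseudocount of 16, no filter on dim genes, the mean of all probe sets, no intensity trend, and each array left out. The count of 3 chaperones fallen at 24 h of TGF-β became 4 under median scaling (Hspa4 added), stayed at 3 with quantile normalization, the lower floor and the pseudocount, and became 1 with the mean of all probe sets (Hspd1), 0 without the filter on dim genes, 0 without the intensity trend, and 0 to 0 when each of the 6 arrays was left out, a fit with 1 residual degree of freedom. At 12 h 1 fell (Hspd1) with quantile normalization and 1 with the pseudocount. With SP600125 2 fell under median scaling (Hspa4 and Hsph1), 1 with the lower floor and 1 with the pseudocount (Hsph1), and 1 rose (Hspa9) with quantile normalization and 1 with the pseudocount. Median scaling shifted the median of all genes at 24 h by −0.11 and the share of risen among called genes from 54.7% to 34.0%.

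Small effects that did not pass changed sign. Hsp90aa1 at 12 h was −0.0532, −0.0234 and −0.10 under median scaling, quantile normalization and averaged probe sets, Dnajb1 at 24 h −0.0397 under median scaling, and Hspa8 at 12 h −0.0756 with averaged probe sets. With SP600125 Hspd1 was −0.0704 and Hspe1 −0.0103 under median scaling, Hspa8 −0.0291 with quantile normalization, and Hspa4 0.33 with the mean of all probe sets. With each array left out Dnajb1 ranged from −0.30 to 0.0365 for SP600125, −0.22 to 0.15 at 12 h and −0.22 to 0.41 at 24 h, Hsp90aa1 from −0.0936 to 0.14 at 12 h and −0.15 to 0.0120 at 24 h, Hspa8 from −0.0445 to 0.0175 at 24 h, and Hsph1 from −0.64 to 0.0734 at 12 h. The cause was not tested. No paired analysis was possible because each group has 1 array and the labels carry no replicate numbers for a replicate block, and the pairs counted in the additive model are pairs of conditions. Of the 36 calls of named partner and ER genes 34 to 36 were kept under median scaling, quantile normalization, the lower floor and the pseudocount, and 13 with averaged probe sets. The interaction could not be fitted without the untreated or the drug-alone array.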
